A study of Eucalyptus grandis
Pisolithus microcarpus and Eucalyptus grandis with 23 samples.

Results

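The CO2 dependence of the root response to the SI-12 strain of Pisolithus microcarpus was measured in 17 of the 23 RNA sequencing libraries of a study on Eucalyptus grandis. The quantity tested is an interaction: the change from control roots to SI-12 roots at 650 ppm CO2, minus the same change at 400 ppm. A positive interaction means that the difference between SI-12 and control roots was larger (in the positive direction) at 650 ppm, and a negative one that it was smaller. The test covered 26968 of the 36376 genes listed, and the called genes were then sorted by which of the 4 group means stood apart from the other means.

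Pisolithus species are ectomycorrhizal fungi, which wrap fine roots of trees in a mantle of hyphae and grow between the outer root cells, where mineral nutrients from the fungus are exchanged for sugars from the plant. Elevated CO2 changes carbon supply to roots, and the symbiosis draws on that supply, so a design that crosses fungus and CO2 asks whether the root answers the fungus in the same way at both levels. If both factors acted independently on a log scale, the interaction of a gene would be zero. The gene IDs of the files could not be paired with names or descriptions, so no roles are stated.

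Seedlings were grown in Petri dishes on a mycorrhizal growth medium with glucose, in chambers held at 400 or 650 ppm CO2. For SI-12 roots a small square of mycelium was laid on the root, and the plates were kept for 1 month. Control roots had no fungus, were grown axenically and were otherwise treated alike. The 4 groups were control roots at 400 ppm (6 libraries), control roots at 650 ppm (5 libraries), SI-12 roots at 400 ppm (3 libraries) and SI-12 roots at 650 ppm (3 libraries). The fungal groups are a single strain each, and the number of seedlings behind a library is not given in the sources used here. Gene reads ranged from 9427857 to 30210474 per library. Before scaling by TMM factors, a count of 3 reads corresponds to 0.0995 CPM in the deepest of these libraries and 0.319 CPM in the shallowest. CPM here are counts scaled to library size with TMM factors, with Eucgr.B01584.1 left out of the library totals because it took up to 16.2% of them.

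Libraries of a group fell into sets that follow the numbers in the deposited library names. Control libraries 1 to 3 at 400 ppm and 1 and 2 at 650 ppm carry numbers 1 to 12, while control libraries 4 to 6 at 400 ppm, 3 to 5 at 650 ppm and all SI-12 libraries carry numbers 13 to 24. The spread between libraries beyond counting noise, as a coefficient of variation over 10375 to 10379 genes of at least 20 CPM, was 0.0526 to 0.122 inside these 6 sets. Between groups it was 0.266 to 0.359. Between both control sets it was 0.222 to 0.231 at 400 ppm and 0.173 to 0.175 at 650 ppm, and a test between these sets called 12529 of 27593 genes (45.4%) at 400 ppm and 6210 (22.5%) at 650 ppm. The labels name the libraries biological replicates. All p-values rest on how much single libraries vary, and inside a set that variation may be technical. Each SI-12 group is 1 set, so CO2 in SI-12 roots cannot be told apart from any other difference between those sets. Results are therefore given also with the controls of either number range alone and with each set as 1 replicate.

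The SI-12 response differed between CO2 levels in 9754 genes, 36.2% of those tested (edgeR's quasi-likelihood test, Benjamini-Hochberg adjusted p under 0.05). The interaction was positive in 4994 of them (18.5%) and negative in 4760 (17.7%). Its absolute size had a median of 1.28 on the log2 scale in the called genes, against 0.583 over all tested genes. It reached at least 1 in 5860 called genes (60.1%), at least 2 in 3207, at least 4 in 1274 (13.1%) and at least 8 in 248. The underlying contrasts of the same fit called 9468 genes (35.1%) between SI-12 and control roots at 400 ppm and 11508 (42.7%) at 650 ppm. Between CO2 levels they called 12320 (45.7%) in control roots and 10098 (37.4%) in SI-12 roots.

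Controls of numbers 13 to 24 alone gave 12541 called genes of 26350 (47.6%), and controls of numbers 1 to 12 gave 12800 of 26437 (48.4%). Both fits use the same SI-12 libraries. Of the 9754 genes, 7516 (77.1%) passed with the same sign in both. A further 194 had the opposite sign, or were not tested, with the controls of at least 1 range. No gene was called with the opposite sign in either fit. With each of the 6 sets taken as 1 replicate, edgeR called 1 gene of 29999 (0.00333%), and 4226 had an unadjusted p under 0.05. DESeq2 on the same sets called 1713 (5.71%). Both fits leave 2 residual degrees of freedom and assume that the lone SI-12 sets vary like the control sets. The F test of edgeR allows for so few degrees of freedom. The DESeq2 test, which takes a normal distribution, does not and can call too many genes. The calls by library therefore describe how these libraries differ, and most of them do not pass when the set is the unit.

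**Figure D1:**
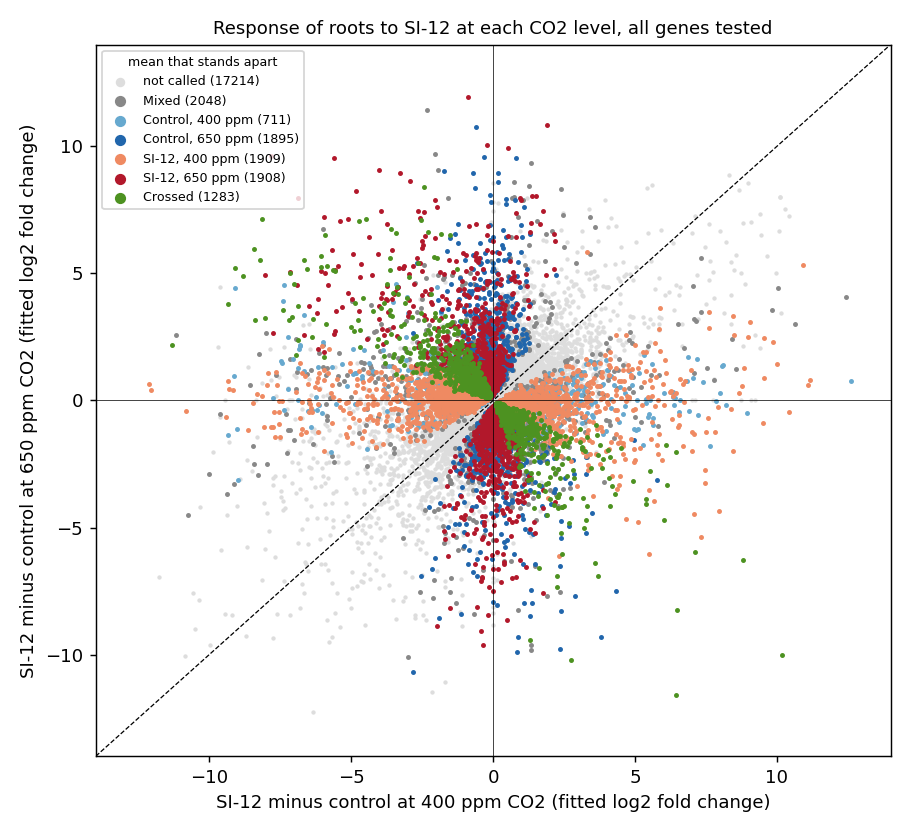
Fitted log2 fold change of SI-12 against control roots at 400 ppm CO2 (x axis) and at 650 ppm CO2 (y axis) for each of the 26968 genes tested, with genes called in the interaction coloured by the group mean that stands apart. Genes with the same response at both levels lie on the dashed diagonal, and called genes spread along both axes and towards the upper left and lower right. The axes have no library in common, and fitted values of genes with a group at 0 reads depend on the prior count.

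Most called genes had a response to SI-12 that passed the test at 1 CO2 level. In 4058 (41.6%) SI-12 and control roots differed at 650 ppm and the difference at 400 ppm was not called, with 2086 higher and 1972 lower in SI-12 roots. In 2690 (27.6%) the difference was called at 400 ppm and not at 650 ppm, with 1317 higher and 1373 lower. Opposite responses, called at both levels, were found in 1733 genes (17.8%), with a median absolute interaction of 1.99. Of these, 917 were lower in SI-12 roots at 400 ppm and higher at 650 ppm, and 816 the other way round. Responses in the same direction at both levels but of different size made up 733 genes (7.51%), and 540 (5.54%) had no called response at either level. These are shares of the called genes only, and the same means entered the interaction test. Over all tested genes the response was called in 35.1% at 400 ppm and 42.7% at 650 ppm. Those shares count calls at 1 level whatever the other level, so they are not like for like with the patterns above. The patterns were not counted over all tested genes here.

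Seen along the CO2 axis, 3292 of the called genes (33.8%) changed with CO2 in control roots with no call in SI-12 roots, and 3271 (33.5%) changed in SI-12 roots with no call in control roots. In 1834 genes (18.8%) the called differences between CO2 levels had opposite directions in control and SI-12 roots. Of these, 965 fell in control roots and rose in SI-12 roots at 650 ppm. A further 869 rose in control roots and fell in SI-12 roots. Another 959 moved the same way by different amounts, and 398 had no call in either. These too are shares of the called genes only. Over all tested genes the CO2 change was called in 45.7% in control roots and 37.4% in SI-12 roots. Again, those shares disregard the call in the other roots and are not like for like with the patterns above.

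The 4 group means of log2(CPM + 0.5) were then put in order for each called gene. A gene was assigned to a group where that mean lay at one end and farther from its neighbour than the range of the other means. The crossed class holds genes in which SI-12 roots at 650 ppm and control roots at 400 ppm lay together, apart from the other pair, and the remainder is called mixed. Each SI-12 group stood apart in about as many genes as the control group at 650 ppm: 1908 genes for SI-12 at 650 ppm, 1909 for SI-12 at 400 ppm and 1895 for control at 650 ppm. Control roots at 400 ppm stood apart in 711 genes (7.29%), the crossed class held 1283 (13.2%) and the mixed class 2048 (21%). The class sizes and directions are a description of the called genes, since the same means entered the test.

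Each class was split by direction. SI-12 roots at 650 ppm were apart at the top in 909 genes and at the bottom in 999, and SI-12 roots at 400 ppm at the top in 912 and at the bottom in 997. Control roots at 650 ppm were apart at the top in 909 and at the bottom in 986, and control roots at 400 ppm in 330 and 381. In the crossed class SI-12 roots at 650 ppm and control roots at 400 ppm were the higher pair in 726 genes and the lower pair in 557. For comparison, the same sort over all 26968 tested genes put 14.9% in the class of SI-12 roots at 650 ppm, 16.2% in that of SI-12 roots at 400 ppm and 16.3% in that of control roots at 650 ppm, against 19.6%, 19.6% and 19.4% of the called genes. The class of control roots at 400 ppm held 7.74% of the tested genes and 7.29% of the called ones, the crossed class 6.56% and 13.2%, and the mixed class 38.2% and 21%. Outside the mixed class, 5671 of the called genes had no overlap between the libraries of the group or pair that stood apart and the other libraries, 58.1% of those called. Over all tested genes it was 8045 (29.8%), beside the 36.2% of tested genes that were called.

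**Figure D2:**
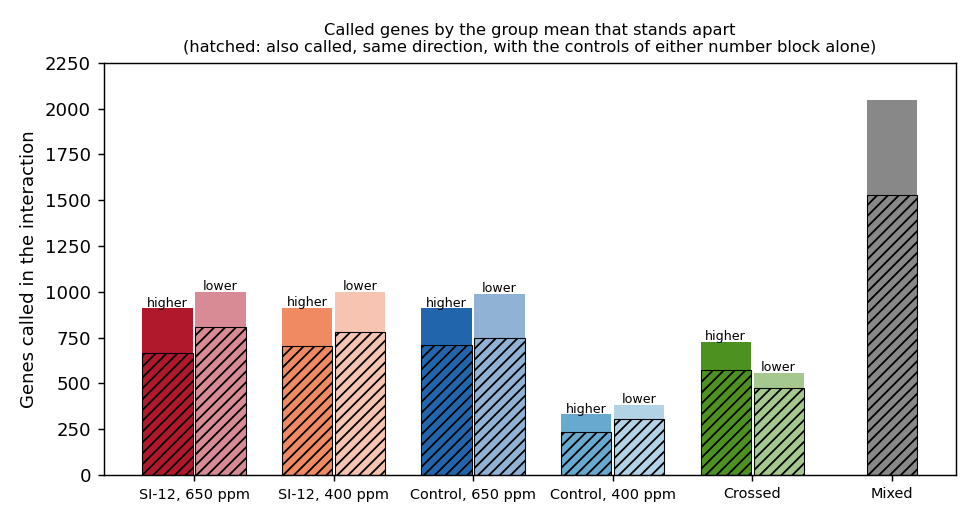
Number of genes called in the interaction (y axis) by the group mean that stands apart and its direction (x axis). Hatched parts are genes called in the same direction with the controls of numbers 1 to 12 alone and with those of numbers 13 to 24 alone; the bars of the SI-12 groups and of control roots at 650 ppm lie between 909 and 999, and those of control roots at 400 ppm at 330 and 381. For the crossed class, higher means that control roots at 400 ppm and SI-12 roots at 650 ppm are the higher pair.

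The classes carried a few percent of the reads each. Genes in which SI-12 roots at 650 ppm were highest held 4.84% to 4.85% of the gene reads in those 3 libraries, with Eucgr.B01584.1 left out, and 2.38% to 2.74% in the other 14. Genes in which SI-12 roots at 400 ppm were highest held 5.23% to 5.31% there and 2.5% to 2.66% elsewhere. The class with control roots at 650 ppm at the top held 8.27% to 8.77% of the reads in that group and 4.91% to 5.26% elsewhere. In crossed genes with the higher pair of control roots at 400 ppm and SI-12 roots at 650 ppm, the share was 2.39% to 2.68% in that pair and 1.76% to 1.87% in the other. The sort, made on the same libraries, fixes the direction of these differences. In bulk tissue, fewer cells that express a gene and less RNA per cell cannot be told apart.

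**Figure D3:**
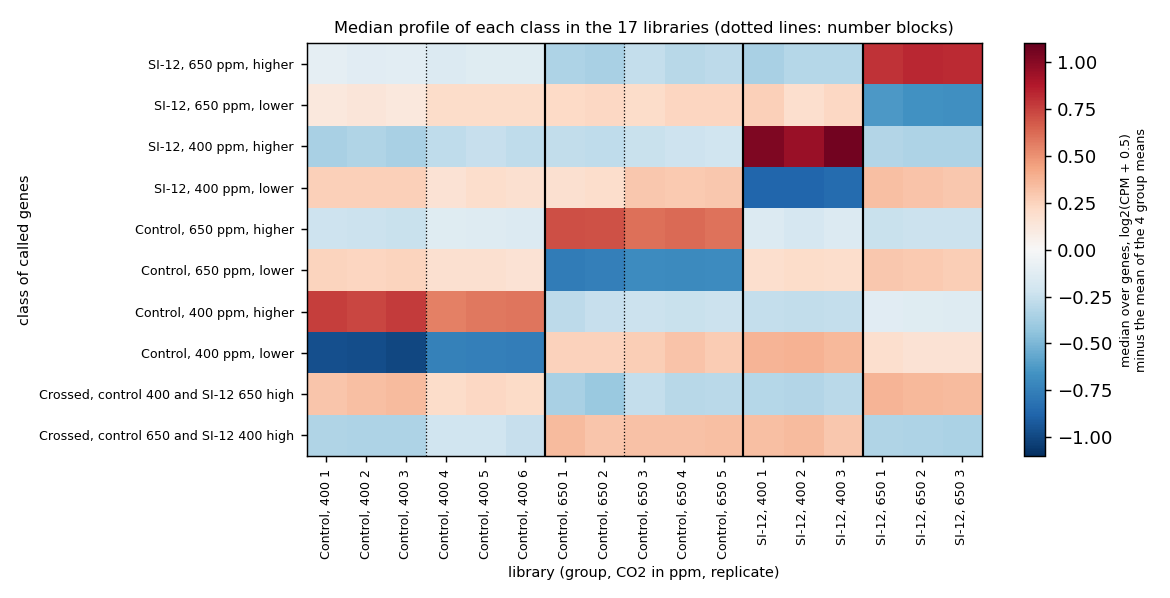
Median over the genes of each class (rows) of log2(CPM + 0.5) minus the mean of the 4 group means, in each of the 17 libraries (columns). SI-12 libraries at 400 ppm reach 0.946 to 1.06 in their higher class, and the number ranges (dotted lines) differ most within control roots at 400 ppm, where the lower class runs from -0.997 to -0.742.

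The genes named below were chosen for libraries that do not overlap between the sides of their class, so that separation was fixed by the choice. Their ranks in a class are among genes that met all criteria for naming, which are given with the processing. Genes in which SI-12 roots at 650 ppm stood apart include the most abundant transcript of those roots. Eucgr.B01584.1 had 41018, 78682 and 184277 CPM in the 3 SI-12 libraries at 650 ppm. It had 2606 to 4200 CPM in SI-12 roots at 400 ppm, 1658 to 2516 CPM (median 2159) in control roots at 400 ppm, and 6033, 5370, 1593, 2026 and 1973 CPM in control roots at 650 ppm. The SI-12 libraries at 650 ppm lay above every other library and differed among themselves by more than any other group. At 650 ppm the mean of SI-12 roots was 29.8-fold that of control roots, and at 400 ppm it was 1.68-fold that of the controls at that level. The interaction was 4.15 on the log2 scale with an SE of 0.64 (adjusted p = 9.62e-05), 5.03 with controls of numbers 13 to 24 and 3.40 with those of numbers 1 to 12. The response at 650 ppm was called (adjusted p = 3.8e-07), whereas at 400 ppm its adjusted p was 0.176. The gap between control ranges at 650 ppm lies in libraries 1 and 2, the ones with numbers up to 12.

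**Figure D4:**
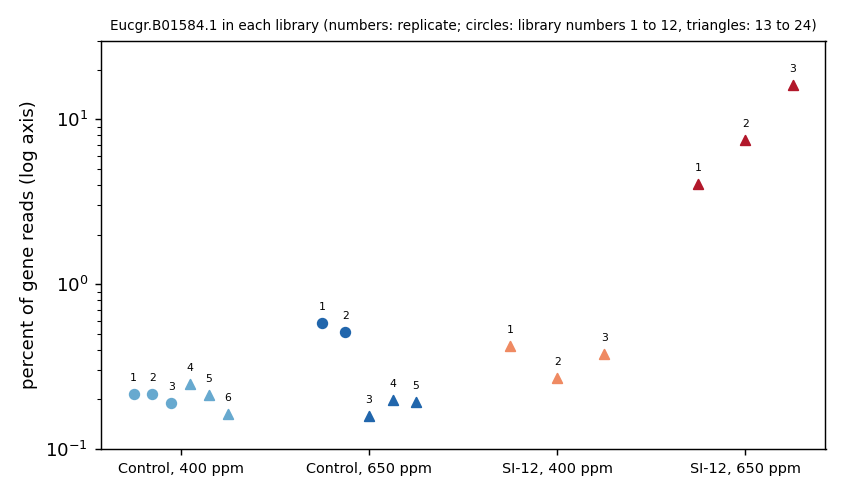
Percent of gene reads taken by Eucgr.B01584.1 in each library (log axis), by group, with libraries of numbers 1 to 12 as circles and of 13 to 24 as triangles. The SI-12 libraries at 650 ppm stand at 4.07%, 7.53% and 16.2%, and all control and SI-12 libraries at 400 ppm and all controls at 650 ppm lie at or below 0.578%.

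Eucgr.E02341.1 had the largest fitted interaction among genes of the same class that met the criteria for naming. Its fitted value depends on the prior count. It had 4.98, 5.28 and 5.84 CPM in SI-12 roots at 650 ppm and no reads in the 5 control libraries at 650 ppm or the 3 SI-12 libraries at 400 ppm. The 400 ppm controls held no reads in libraries 1 to 3 and 3.87, 1.92 and 3.76 CPM in libraries 4 to 6. Thus the SI-12 libraries at 650 ppm lay above all others, and the number ranges of the 400 ppm controls did not overlap. At 650 ppm SI-12 roots exceeded control roots at least 179.6-fold, by a floor of 3 counts over the control group, while the difference at 400 ppm was not called (adjusted p = 0.0901). Its call (adjusted p = 0.0053) was lost with the controls of numbers 1 to 12 (adjusted p = 1), where both groups at 400 ppm have no reads.

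Among genes lowest in SI-12 roots at 650 ppm that met the criteria for naming, Eucgr.K02178.1 had the largest fitted interaction. It had 0.565, 0 and 0.417 CPM there, against 62.7, 65.4 and 69.5 CPM in SI-12 roots at 400 ppm and 65.7 to 72.6 CPM in the 5 control libraries at 650 ppm. In the 400 ppm controls it stood at 32.0 to 34.3 CPM in libraries 1 to 3 and 3.31 to 6.53 CPM in libraries 4 to 6. The gene was 209.0-fold lower in SI-12 than in control roots at 650 ppm (adjusted p = 9.38e-06) and 3.47-fold higher at 400 ppm (adjusted p = 0.0128). The opposite responses gave an interaction of -9.33 on the log2 scale, with an SE of 1.09 (adjusted p = 5.16e-06), and -11.23 and -8.49 with the controls of the later and the earlier numbers.

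Eucgr.J00930.1 was the most abundant gene of that class that met the criteria for naming, with an absolute interaction of at least 1. Its SI-12 libraries at 650 ppm held 759, 759 and 746 CPM, all below the 1321 to 1410 CPM of SI-12 roots at 400 ppm, the 1408 to 1616 CPM (median 1508) of control roots at 400 ppm, and the 1434 to 1929 CPM of control roots at 650 ppm. It was 2.24-fold lower in SI-12 than in control roots at 650 ppm (adjusted p = 2.03e-08). At 400 ppm the log2 difference was -0.15 (adjusted p = 0.177). The interaction was -1.02 with an SE of 0.12, and was -1.22 and -0.74 with the controls of the later and the earlier numbers. The gene did not pass with sets as replicates by DESeq2 (adjusted p = 0.0633).

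SI-12 roots at 400 ppm stood apart at the top in Eucgr.A01200.1, with 665.0, 745.8 and 691.4 CPM. Control roots held 222.7 to 260.6 CPM (median 239.6) at 400 ppm and 137.1 to 163.8 CPM at 650 ppm, and SI-12 roots at 650 ppm 167.5 to 182.7 CPM. The 3 SI-12 libraries at 400 ppm lay above all others, at 2.91-fold the controls of that CO2 level (adjusted p = 3.05e-11). At 650 ppm the log2 difference was 0.21 (adjusted p = 0.0304). With 650 ppm the gene fell 4.06-fold in SI-12 roots and 1.60-fold in control roots, and the interaction was -1.34 with an SE of 0.10 (adjusted p = 3.7e-08).

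Eucgr.K01115.1, at a low level, had the largest fitted interaction among genes of that class that met the criteria for naming. SI-12 roots at 400 ppm held 4.48, 6.44 and 6.03 CPM, while control roots at 650 ppm held 0.661 to 1.49 CPM. Of the 400 ppm controls, 5 libraries had no reads and the other held 0.15 CPM, and SI-12 roots at 650 ppm had none in 2 libraries and 0.167 CPM in the third. The SI-12 libraries at 400 ppm thus lay above all others and those of control roots at 650 ppm between them and the rest. Counted as reads, 199 in SI-12 roots against 2 in control roots at 400 ppm gave a ratio of 371.9, with an exact 95% interval of 101.6 to 3092 for counting error. At 650 ppm the direction was opposite, with 114 reads in control against 2 in SI-12 roots, a ratio of 24.9 (6.72 to 207.7). Both responses were called (adjusted p = 3.03e-07 and 0.000999), as was the interaction (adjusted p = 6.61e-07).

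Eucgr.C02944.1 had no reads in the 3 libraries of SI-12 roots at 400 ppm, while SI-12 roots at 650 ppm held 31.8, 32.5 and 26.4 CPM. Control roots held 21.1 to 37.7 CPM (median 31.4) at 400 ppm and 16.9 to 21.4 CPM at 650 ppm. SI-12 roots lay below control roots at least 335.7-fold at 400 ppm (adjusted p = 2.02e-10) and above them 1.58-fold at 650 ppm (adjusted p = 0.00818). By the same floor the interaction was at least 9.04 on the log2 scale (adjusted p = 4.7e-10).

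Eucgr.F04219.1 was the most abundant gene lowest in SI-12 roots at 400 ppm among those that met the criteria for naming. It held 618.2, 493.3 and 554.9 CPM there and 1338, 1401 and 1222 CPM in SI-12 roots at 650 ppm. The controls at 400 ppm held 1572 to 1694 CPM in libraries 1 to 3 and 2690 to 2826 CPM in libraries 4 to 6. At 650 ppm the order of the ranges was reversed, with 2298 and 2403 CPM in libraries 1 and 2 and 1644 to 1696 CPM in libraries 3 to 5. SI-12 roots lay below their controls at both levels, 3.94-fold at 400 ppm (adjusted p = 1.59e-06) and 1.47-fold at 650 ppm (adjusted p = 0.0327). The interaction of 1.42 (SE 0.28, adjusted p = 0.000764) was 1.95 with the controls of the later numbers and 0.73 with those of the earlier ones. It did not pass with sets as replicates by DESeq2 (adjusted p = 0.138).

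In the next class, control roots at 650 ppm stood apart, and SI-12 roots at 650 ppm lay nearer to both groups at 400 ppm. Eucgr.E01060.1 held 694.7 to 745.3 CPM in the 5 control libraries at 650 ppm. For control roots at 400 ppm the values were 2988 to 3614 CPM (median 3274), SI-12 roots at 400 ppm 3167 to 3278 CPM and SI-12 roots at 650 ppm 2444, 2286 and 2497 CPM. Control roots at 650 ppm lay below all other libraries. The gene fell 4.61-fold with CO2 in control roots (adjusted p = 2.32e-14) and 1.34-fold in SI-12 roots (adjusted p = 0.000266). SI-12 roots were 3.38-fold above controls at 650 ppm (adjusted p = 3.31e-12), against a log2 difference of -0.03 at 400 ppm (adjusted p = 0.787). The interaction of 1.78 (SE 0.09, adjusted p = 3.37e-10) was 1.64 and 1.93 with the controls of the later and the earlier numbers.

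Eucgr.J02620.1 nearly disappeared from control roots at 650 ppm, with 1 read over the 5 libraries (0.0423 CPM in library 4). It held 10.6 to 11.9 CPM in control libraries 1 to 3 at 400 ppm and 5.38 to 6.19 CPM in libraries 4 to 6, and 4.87, 4.91 and 6.97 CPM in SI-12 roots at 400 ppm. SI-12 roots at 650 ppm held the most, at 28.1, 32.0 and 27.3 CPM. The ratio of SI-12 to control reads at 650 ppm was 2952, with an exact 95% interval of 528.8 to 116668 for counting error. CO2 changed the gene in opposite directions, down in control roots (adjusted p = 1.73e-10) and up 5.22-fold in SI-12 roots (adjusted p = 1.88e-05), and the interaction was called (adjusted p = 4.76e-10).

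At the top of control roots at 650 ppm, Eucgr.J01447.1 held 976.0 to 1108 CPM. SI-12 roots held 396.5 to 426.5 CPM at 400 ppm and 345.0 to 355.0 CPM at 650 ppm. In control libraries at 400 ppm it was at 272.7 to 280.7 CPM for libraries 1 to 3 and 437.4 to 460.5 CPM in libraries 4 to 6, on either side of the SI-12 values. The gene rose 2.87-fold with CO2 in control roots (adjusted p = 9.96e-08), whereas in SI-12 roots its log2 difference was -0.24 (adjusted p = 0.321). The interaction was -1.76 with an SE of 0.22 (adjusted p = 1.36e-05), or -1.40 and -2.23 with the controls of the later and the earlier numbers.

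Eucgr.H02209.1 was found almost only in control roots at 650 ppm, with 8.42, 5.62, 4.92, 5.12 and 6.07 CPM in the 5 libraries. Control roots at 400 ppm and SI-12 roots at 650 ppm had no reads, and SI-12 roots at 400 ppm had 1 read in library 3. In control roots the level at 650 ppm was at least 250.3-fold that at 400 ppm (adjusted p = 2.37e-07), and SI-12 roots at 650 ppm lay at least 84.9-fold below those controls (adjusted p = 5.41e-06). Its interaction (adjusted p = 0.00215) was no longer called when the SI-12 library with that 1 read was left out.

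In the class of control roots at 400 ppm, Eucgr.F01776.1 held 2764 to 3184 CPM (median 3017) in those roots, above every other library. SI-12 roots held 1397, 1115 and 1355 CPM at 400 ppm and 1909 to 1999 CPM at 650 ppm, and control roots at 650 ppm held 1252 and 1264 CPM in libraries 1 and 2 and 1939 to 1996 CPM in libraries 3 to 5. The gene was 2.33-fold lower in SI-12 than in control roots at 400 ppm (adjusted p = 4.36e-06), and the log2 difference at 650 ppm was 0.21 (adjusted p = 0.227). At 650 ppm the gene was 1.78-fold lower than at 400 ppm in control roots and 1.51-fold higher in SI-12 roots. The interaction was 1.43 with an SE of 0.19 (adjusted p = 2.56e-05), and 1.14 and 1.92 with the controls of the later and the earlier numbers.

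Eucgr.H03064.1 was nearly confined to the 400 ppm controls among these 4 groups, with 0.999, 1.75 and 1.05 CPM in libraries 1 to 3 and 10.4, 11 and 12.9 CPM in libraries 4 to 6. Control roots at 650 ppm held 2 reads in all, SI-12 roots at 400 ppm 1 and SI-12 roots at 650 ppm 3. The ratio of control to SI-12 reads at 400 ppm was 177.9 (exact 95% interval 31.8 to 7038 for counting error), and no ratio is given at 650 ppm, where both groups were at or under the floor. Its interaction (adjusted p = 0.0355) was not called without SI-12 library 2 or 3 at 400 ppm, or without SI-12 library 3 at 650 ppm.

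Among genes lowest in control roots at 400 ppm that met the criteria for naming, the largest fitted interaction was that of Eucgr.B02774.1. It held 0.038 to 0.865 CPM (median 0.326) there and 14.9, 12.5 and 17.5 CPM in SI-12 roots at 400 ppm. Control roots at 650 ppm held 5.07 and 5.51 CPM in libraries 1 and 2 and 25.0 to 28.1 CPM in libraries 3 to 5, and SI-12 roots at 650 ppm 4.93 to 5.67 CPM. The gene was 36.3-fold higher in SI-12 than in control roots at 400 ppm (adjusted p = 3.17e-06) and 3.31-fold lower at 650 ppm (adjusted p = 0.0223). The interaction was -7.03 with an SE of 0.88 (adjusted p = 1.1e-05). At 650 ppm the SI-12 values overlapped with those of control libraries 1 and 2 and lay below libraries 3 to 5.

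Eucgr.H03076.1, the most abundant gene of that kind, held 18.4 to 19.8 CPM in control libraries 1 to 3 at 400 ppm and 63.4 to 69.5 CPM in libraries 4 to 6. Control roots at 650 ppm held 74.8 to 117.5 CPM, and SI-12 roots 245.7, 167.2 and 222.5 CPM at 400 ppm and 121.3 to 141.8 CPM at 650 ppm. The control libraries at 400 ppm were the lowest, in both ranges. The interaction was -1.85 with an SE of 0.56 (adjusted p = 0.0158), but -1.0 with the controls of numbers 13 to 24 and -3.26 with those of numbers 1 to 12. With sets as replicates DESeq2 gave an adjusted p of 0.27.

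In the crossed class the group with both SI-12 and 650 ppm CO2 lay near the group with neither. Eucgr.J00530.1 had this pattern with little spread. It held 151.2 to 167.9 CPM (median 160.7) in control roots at 400 ppm and 208.0, 229.9 and 211.0 CPM in SI-12 roots at 650 ppm. It held 327.1 to 366.9 CPM in control roots at 650 ppm and 437.0, 427.3 and 428.2 CPM in SI-12 roots at 400 ppm, so that no group overlapped with another. SI-12 roots were 2.69-fold above controls at 400 ppm (adjusted p = 2.04e-12) and 1.59-fold below them at 650 ppm (adjusted p = 6.19e-08). The interaction was -2.10 with an SE of 0.08 (adjusted p = 3.54e-12), and -2.11 and -2.08 with the controls of the later and the earlier numbers.

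Eucgr.J00375.1 was present in one pair of groups and without reads in the other. Control roots at 650 ppm held 7.82, 8.71, 6.38, 6.47 and 5.57 CPM and SI-12 roots at 400 ppm 6.82, 7.36 and 9.24 CPM. The 6 control libraries at 400 ppm and the 3 SI-12 libraries at 650 ppm had no reads. SI-12 roots lay above control roots at least 348.9-fold at 400 ppm (adjusted p = 3.74e-08) and below them at least 96.8-fold at 650 ppm (adjusted p = 4.84e-07). With the floor of 3 counts in both empty groups the interaction was -15.04 on the log2 scale, a bound on its size (adjusted p = 1.75e-08).

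Eucgr.H03345.1 had the opposite crossed pattern. It held 6.55 to 9.28 CPM (median 8.50) in control roots at 400 ppm and 5.60, 7.38 and 5.34 CPM in SI-12 roots at 650 ppm, and at most 0.441 CPM in control roots at 650 ppm and 0.102 CPM in SI-12 roots at 400 ppm. The pairs did not overlap. The ratio of control to SI-12 reads at 400 ppm was 143.9 (exact 95% interval 39.7 to 1190 for counting error), and at 650 ppm SI-12 roots were 24.9-fold higher (adjusted p = 4.48e-08). The interaction of 11.61 had an SE of 0.67 (adjusted p = 1.26e-09).

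Eucgr.F01611.1 followed the same pattern at a higher level. Among 400 ppm controls, libraries 1 to 3 held 489.2 to 560.9 CPM and libraries 4 to 6 held 387.3 to 408.5 CPM, and SI-12 roots at 650 ppm 454.9 to 479.1 CPM. Those at 650 ppm held 165.6 and 183.2 CPM in libraries 1 and 2 and 299.1 to 340.6 CPM in libraries 3 to 5, and SI-12 roots at 400 ppm 209.5 to 269.5 CPM. SI-12 roots were 1.90-fold lower than controls at 400 ppm (adjusted p = 0.0018) and 1.79-fold higher at 650 ppm (adjusted p = 0.00247). The interaction of 1.76 (SE 0.28, adjusted p = 0.000126) was 1.25 with the controls of the later numbers and 2.55 with those of the earlier ones.

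**Figure D5:**
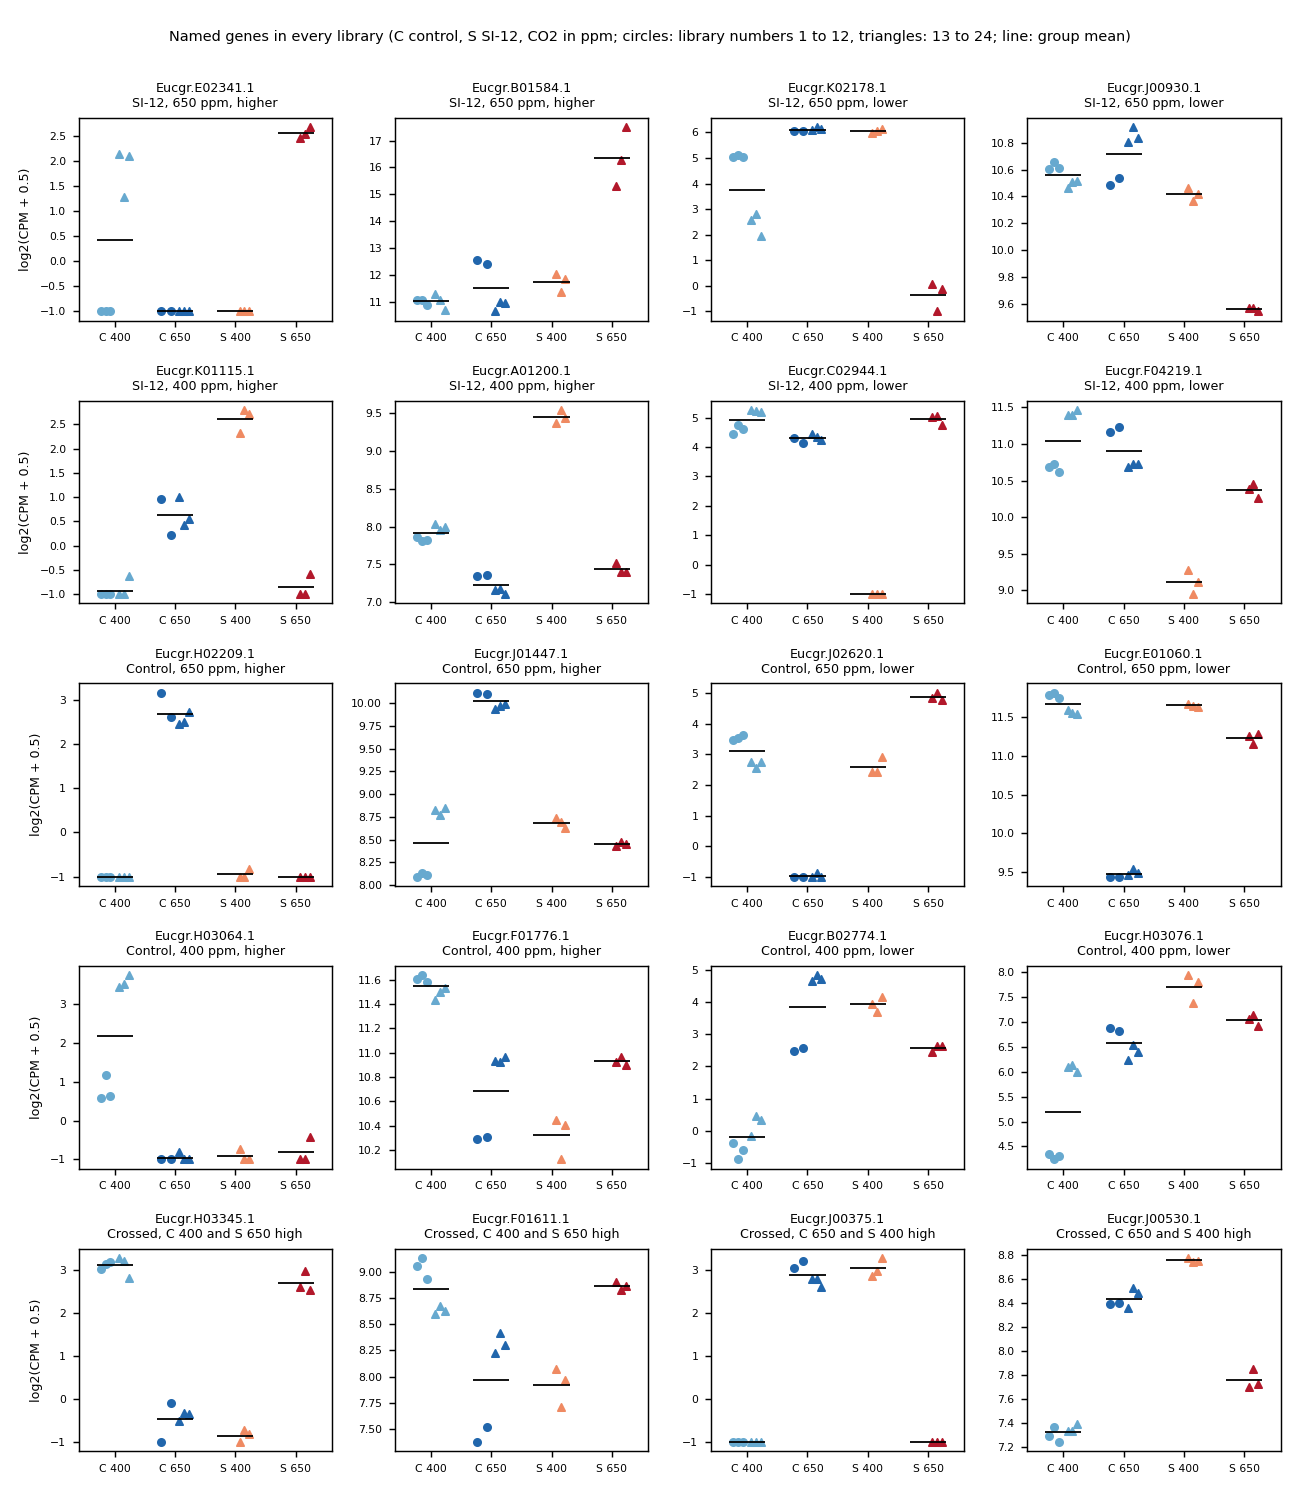
Level of the 20 named genes, as log2(CPM + 0.5), in each of the 17 libraries, with circles for libraries of numbers 1 to 12, triangles for 13 to 24 and a line at each group mean. C is control and S is SI-12, at 400 or 650 ppm CO2. In each panel the group or pair named in its title lies apart from the others, which the choice of these genes required. An example is Eucgr.J00530.1, with 151.2 to 167.9 CPM in control roots at 400 ppm and 427.3 to 437.0 CPM in SI-12 roots at 400 ppm.

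With sets as replicates, 16 of the 20 named genes were called by DESeq2, and Eucgr.E02341.1, Eucgr.J00930.1, Eucgr.F04219.1 and Eucgr.H03076.1 were not. edgeR called none of the 20 there. The only gene that edgeR called with 6 sets was Eucgr.G00352.1, chosen here after its values were seen (adjusted p = 0.0297). It held 327.4 to 347.4 CPM in the 6 control libraries at 400 ppm and 84.6 to 97.9 CPM in SI-12 roots at 650 ppm. The controls at 650 ppm held 12 to 14.8 CPM and SI-12 roots at 400 ppm 10.7 to 16 CPM, so the gene belongs to the crossed pattern. Its interaction by library was 7.47 with an SE of 0.15 (adjusted p = 2.22e-15), and 86.22% of its reads matched 1 gene only, so reads of a near-identical copy may be in its count.

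DESeq2 on 6 sets called 1707 genes in the same direction as the test on libraries. Their median absolute interaction was 3.19, against 1.04 in the other called genes. Both tests use the same reads, and with few sets large interactions pass more readily. The gap in size is therefore partly set by the test. The 20 named genes were chosen from the same libraries, for large interactions or abundance and for libraries that do not overlap. That more of them passed with sets than of the called genes as a whole is therefore partly set by that choice. By class, 23% of the crossed genes were among the 1707, 19.6% of the class of SI-12 roots at 400 ppm, 18.3% of control roots at 400 ppm, 17% of control roots at 650 ppm and 16.5% of SI-12 roots at 650 ppm. The mixed class had 13.2%.

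Among called genes, fitted interactions were larger at low abundance. With few reads a small interaction is less likely to be called, and fitted values of groups without reads depend on the prior count. The medians below are of called genes only. Split by mean level into 4 bins of 6742 tested genes, 25.5% of the lowest bin, 0.112 to 2.46 CPM, were called, with a median absolute interaction of 3.71. In the highest bin, from 37.9 CPM upward, 42.5% were called with a median of 0.608. By the letter in the gene ID the called share ran from 34% for J to 39.1% for C. Called genes with L had the largest median size, 2.35, with 38.2% of the L IDs called. Abundance was not taken into account in this split.

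A few called genes were on or off by group. Among the 7937 called genes that reached at least 5 CPM in some group, 64 had no reads in at least 1 other group, against 125 of 19361 such genes tested. The empty group was SI-12 roots at 400 ppm in 25 genes, SI-12 roots at 650 ppm in 14, control roots at 400 ppm in 12 and control roots at 650 ppm in 9. Both groups of a crossed pair were empty in 4, with 2 for each pair. Of the 64 genes, 36 had at least 90% of their reads matching 1 gene only. Neither count was made for the 125 tested genes, so these numbers are no trait of the called genes in particular. The SI-12 groups have 3 libraries each and the control groups 6 and 5, so an empty SI-12 group rests on fewer reads.

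Over all 9754 genes, 2140 had under 90% of reads that matched 1 gene only, as had 5709 of the tested genes, and their counts are uncertain because copies could share reads. When such reads were left out, 9366 of the 9754 genes were still called in the same direction.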

How the data were processed

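The deposited tables give, per the file headers, a count of unique gene reads (matching 1 gene only), a count of total gene reads and the length of each gene, a value of another kind that was not tested. Reads of 2 control libraries had been trimmed as pairs, per the file headers. Which aligner, build or strand setting was used is not given in the sources used here. Of the 36376 gene IDs, 0 matched the reference table (assembly ASM1654582v1), so the gene lists, text patterns on descriptions, could not be applied.

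Total gene reads of 17 libraries in 4 groups were fitted with 1 mean per group (13 residual degrees of freedom) in edgeR 4.0.16 (limma 3.58.1, R 4.3.3): TMM factors, filterByExpr by group, glmQLFit and glmQLFTest, 2-sided, Benjamini-Hochberg at 0.05 over all genes tested. Eucgr.B01584.1 was kept in the test and left out of library totals. Standard errors were derived from the F statistic and the fold change. Intervals and the floor of 3 counts (over the group unless a library is named) cover counting error only. The members, gene lists and tests were chosen with earlier results of these data known.

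Named genes were taken among called genes with at least 90% unique reads, a highest group mean of at least 5 CPM, the same sign of the interaction with the controls of either number range and no overlap between the sides of the class. In each of 10 classes they are the gene with the largest interaction and the most abundant gene with an absolute log2 interaction of at least 1. Eucgr.B01584.1 is also named. Replicate numbers are shared between groups, but same-numbered libraries did not deviate together (correlations of -0.0913 to 0.14), so the numbers pair no samples. Alternatives were other scaling, library totals with Eucgr.B01584.1, other filters, DESeq2 1.42.0, all 23 libraries in 1 fit, unique reads, replicate or number blocks, controls of 1 number range, sets as replicates, a 2-fold minimum, each library left out and other group means for the sort. The fit of replicates 1 to 3 without a block was added after seeing the data. Figures used matplotlib 3.10.9.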

Additional observations from a re-analysis of the deposited data

Results flagged for a closer look

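The SI-12 response, or equally the CO2 change, differed between its 2 settings in 9754 genes by the interaction test. Among the named genes the fitted log2 interactions were 17.44 for Eucgr.E02341.1, 4.15 for Eucgr.B01584.1, -9.33 for Eucgr.K02178.1 and -1.02 for Eucgr.J00930.1, where SI-12 roots at 650 ppm stood apart. They were -12.31 for Eucgr.K01115.1, -1.34 for Eucgr.A01200.1, 12.78 for Eucgr.C02944.1 and 1.42 for Eucgr.F04219.1, where SI-12 roots at 400 ppm did. For control roots at 650 ppm they were -12.14 for Eucgr.H02209.1, -1.76 for Eucgr.J01447.1, 11.39 for Eucgr.J02620.1 and 1.78 for Eucgr.E01060.1. For control roots at 400 ppm they were 9.03 for Eucgr.H03064.1, 1.43 for Eucgr.F01776.1, -7.03 for Eucgr.B02774.1 and -1.85 for Eucgr.H03076.1. In the crossed class they were 11.61 for Eucgr.H03345.1, 1.76 for Eucgr.F01611.1, -20.16 for Eucgr.J00375.1 and -2.10 for Eucgr.J00530.1. Fitted values of genes with a group at 0 or a few reads depend on the prior count.

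An outlier check flagged a single control library in 3 of 44 cases. The flags were Eucgr.K01115.1 at 0.15 CPM in a 400 ppm control, and Eucgr.J02620.1 at 0.0423 CPM and Eucgr.H03064.1 at 0.0679 CPM in 650 ppm controls, each 1 or 2 reads in a group otherwise at 0. In such a group the check always flags a lone library with reads. Its nominal chance rate of about 1 in 20 therefore does not apply to them.

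In libraries outside the comparisons, Eucgr.B01584.1 took 2.36%, 1.96% and 2.95% of the gene reads of roots with the SI-9 strain at 400 ppm and 1.59% in 1 SI-9 library at 650 ppm, above the highest control library at 0.578%. The other SI-9 libraries at 650 ppm, at 0.249% and 0.233%, lay inside the control range. An earlier account of these data found a SI-9 library to hold reads of more than 1 group. Whether that is the library at 1.59% was not tested.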

How the results depend on the processing

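The interaction count of 9754 stayed within 1.5 times under other scaling, filters, counts and blocks, and each library left out in turn gave 8410 to 9928. Without single libraries the responses to SI-12 gave 7701 to 9639 genes at 400 ppm and 9378 to 11808 at 650 ppm, and the CO2 changes 11166 to 12508 in control and 8291 to 10342 in SI-12 roots. Against a 2-fold minimum the interaction kept 2842 genes, the SI-12 responses 2229 at 400 ppm and 2481 at 650 ppm, and the CO2 changes 2455 in control and 2544 in SI-12 roots. With 6 sets as replicates DESeq2 called 1713, 1870, 2622, 3217 and 1898 in the same order, and edgeR 1, 6, 0, 233 and 0, with 4226, 4168, 5419, 6048 and 4316 at an unadjusted p under 0.05. Such tests have 2 residual degrees of freedom in place of 13.

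With the replicate block, on libraries 1 to 3 of each group, 11401 genes were called, against 11748 for the same libraries without it. The numbers pair no samples, and the block moved no call count by 1.5 times. The signs of the 20 named genes, which were chosen for the same sign with the controls of either number range, did not change under any alternative run. Eucgr.E02341.1 was lost also with the replicate block and with libraries 1 to 3 alone, and a 2-fold minimum lost Eucgr.J00930.1, Eucgr.F04219.1, Eucgr.H03064.1 and Eucgr.H03076.1. Of the called genes, 73.2% kept their class with group means of numbers 13 to 24 only, and 93.9% to 96.3% under the other sorts, in which no class size moved by 1.5 times. The median of all genes shifted by at most 0.034 (log2). The causes were not tested. Depth limits levels under about 0.0995 to 0.319 CPM (before TMM factors), which rest on under 3 reads in a library.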
